A study of Mus musculus with 6 samples.

Results

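The replication-dependent histone genes were followed in Hi-C maps of mouse B-cell progenitors with and without the transcription factor Erg. They were taken as the protein-coding genes of the mm10 annotation whose symbol starts with Hist1h, Hist2h or Hist3h, each placed in the bin of about 100 kb that holds its start. The rule found 66 genes in 9 of 23651 autosomal bins kept for analysis. Of these genes, 54 belong to Hist1h on chromosome 13, 10 to Hist2h on chromosome 3 and 2 to Hist3h on chromosome 11.

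In situ Hi-C ligates fragments of DNA that touch inside the nucleus, and each sequenced read pair stands for 1 such contact. Lineage-negative marrow cells, from mice labelled C56BL/6, had been cultured with the cytokines SCF, IL7 and FL on a feeder layer of OP9, a stromal line, for 8 days before cells carrying B220 were selected, and 3 genotypes had 2 libraries each. The Erg KO was Rag1CreT/+;Erg fl/fl, in which Cre recombinase under Rag1 deletes floxed Erg from the common lymphoid progenitor stage onward. The CreT control was Rag1CreT/+ with unfloxed Erg, and the Erg fl/fl control was Rag1Cre+/+;Erg fl/fl, with floxed Erg and no Cre. The paper calls the Erg-deficient cells of its Hi-C pre-proB and the wild-type cells proB. Effects of genotype and of developmental stage could thus not be told apart here. Male mice gave Erg KO 2 and Erg fl/fl control 2, females gave the remaining 4 libraries, and the study's methods give a range of ages for its mice as a whole and none for these libraries. Libraries held 29014581 to 68085468 read pairs, with Erg fl/fl control 2 the smallest. Values are given in the order Erg KO 1 and 2, CreT control 1 and 2, Erg fl/fl control 1 and 2, and the controls are also called CreT and Erg fl/fl. Hi-C does not measure expression, so the B-cell label was read through the compartment score explained further on. In both the Erg KO and the controls the mean score was positive in 8 of 9 bins holding B-lineage marker genes, the exception being that of Ebf1, an early B-cell transcription factor. It was positive as well in all 8 bins of T-lineage and all 8 of myeloid markers, so the score did not tell B cells from these lineages. None of these 9 bins passed the limma test between genotypes, whereas 2 of 12 stromal feeder genes, Col1a2 and Prrx1, lay in bins scoring higher in the Erg KO, where 2.00% of all 23651 bins did. The part of feeder cells in the results was not tested, and neither was that of contacts to other chromosomes, which made up a median of 34.0 and 35.9% of a bin's read pairs in the Erg KO and 22.9 to 28.5% in the controls.

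Replication-dependent histone genes supply the core histones H2A, H2B, H3 and H4 and the linker histones H1 that package newly copied DNA in S phase. They are compact, mostly intronless, and lie in tandem clusters. Their transcripts end in a stem-loop in place of a poly(A) tail, and are made and cut in a nuclear compartment, the histone locus body, organised by the coactivator Npat.

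Histone genes of one type are near copies of each other, and the sequences below show how far that goes for the loci whose contacts are compared. The first pair was taken from the coding sequence of mm10 (GRCm38) and shows the longest exact run shared by an H4 gene from either end of Hist1h, and that shared by an H3 gene of Hist1h and one of Hist2h.
H4 run of 236 bases, Hist1h4k at chr13:21750201-21750436 (minus strand) and Hist1h4a at chr13:23760853-23761088 (minus strand): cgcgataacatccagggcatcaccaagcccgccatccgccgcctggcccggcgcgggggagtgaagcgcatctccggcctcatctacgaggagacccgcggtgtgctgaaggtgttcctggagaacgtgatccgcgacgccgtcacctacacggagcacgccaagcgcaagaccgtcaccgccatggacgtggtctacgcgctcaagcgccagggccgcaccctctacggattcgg
H3 run of 92 bases, Hist1h3a at chr13:23762112-23762203 (minus strand) and Hist2h3b at chr3:96268844-96268935 (plus strand): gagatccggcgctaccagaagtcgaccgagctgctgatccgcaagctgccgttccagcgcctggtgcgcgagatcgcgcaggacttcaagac
A read of 80 bases that falls inside such a run has more than 1 possible origin. Between the centromeric and telomeric parts of Hist1h, exact coding runs of at least 80 bases were shared by 35 of 42 H2A gene pairs, 55 of 56 H2B pairs, 14 of 14 H3 pairs and 28 of 30 H4 pairs, but by 0 of 5 pairs of linker histone genes, whose longest shared run was 47 bases. Between Hist1h and Hist2h they were shared by 22 of 52 H2A pairs and 27 of 27 H3 pairs, and by 0 of 30 H2B and 0 of 11 H4 pairs. These genes fill little of their bins. Of all 80-base words in the centromeric Hist1h bins, 1.48% also occurred in the telomeric bins, and of those in the Hist2h bin 0.181% also occurred in Hist1h bins.

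The promoters carried the elements known from this gene family. Sequences of 61 of the 66 genes were found in RefSeq, and 250 bases before each start were searched on both strands for the octamer ATTTGCAT, which is bound by Pou2f1 (Oct1), for TATAAA and for CCAAT. The octamer was found in 6 of 16 H2B and 7 of 18 H2A promoters and in 0 of the 6 H1, 10 H3 and 11 H4 promoters, against 1.60% of all 32817 mouse promoters. H2A and H2B genes often stand head to head, so that 1 octamer can be counted for both. TATAAA was found in 29 of 61 and CCAAT in 51 of 61, against 12.4% and 33.8% of all promoters. The 150 bases before the start are printed for an H2B gene of the centromeric part of Hist1h, of the telomeric part and of Hist2h (RefSeq, GRCm38), with capitals marking the octamer, TATAAA, and CCAAT or its reverse complement.
Hist1h2bm, chr13:21721894-21722043 (plus strand): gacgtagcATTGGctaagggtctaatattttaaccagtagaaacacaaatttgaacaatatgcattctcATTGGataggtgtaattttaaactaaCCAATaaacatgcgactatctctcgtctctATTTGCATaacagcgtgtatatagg
Hist1h2bg, chr13:23571250-23571399 (plus strand): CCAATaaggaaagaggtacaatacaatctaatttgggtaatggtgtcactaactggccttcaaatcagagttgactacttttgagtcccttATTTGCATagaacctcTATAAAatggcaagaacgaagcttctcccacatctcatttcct
Hist2h2bb, chr3:96269550-96269699 (plus strand): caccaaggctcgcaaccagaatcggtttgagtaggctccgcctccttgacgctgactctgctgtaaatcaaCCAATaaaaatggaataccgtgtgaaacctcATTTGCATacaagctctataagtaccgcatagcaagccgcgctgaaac
The octamer begins 25 bases before the start of Hist1h2bm, 59 before that of Hist1h2bg and 48 before that of Hist2h2bb. All 3 windows also hold CCAAT, and of them only that of Hist1h2bg holds TATAAA. The matches describe the letters and not binding.

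On chromosome 13 the genes form a pair of sub-clusters. The centromeric one spans 328 kb from Hist1h2bl to Hist1h2bj and has 23 genes in 3 bins. Its bin at chr13:21699674-21800805 holds 12 genes with the linker histone gene Hist1h1b, and will be called the Hist1h1b bin. The next, at chr13:21800802-21900189, holds 6 genes from Hist1h2bq to Hist1h2br (Hist1h2bq bin), and the last, at chr13:21999875-22099858, holds 5 from Hist1h2ah to Hist1h2bj (Hist1h2bj bin). The telomeric one spans 404 kb from Hist1h4h to Hist1h2aa and has 31 genes in 4 bins. These are the Hist1h1d bin at chr13:23500131-23600555 with 14 genes, the Hist1h1e bin at chr13:23600552-23699503 with 6, the Hist1h1c bin at chr13:23699500-23800063 with 9, and the Hist1h2ba bin at chr13:23900156-24000011 with 2. Linker histone genes Hist1h1e and Hist1h1t, the latter known from the testis, share the Hist1h1e bin, and Hist1h1c and Hist1h1a share the Hist1h1c bin. Hist1h2ba and Hist1h2aa, a divergent H2B and H2A pair, encode testis forms. A spacer of 1.49 Mb without member genes lies between the sub-clusters, and 35 of its 39 protein-coding genes are Vmn1r genes, which encode pheromone receptors of the vomeronasal organ. The 10 Hist2h genes, Hist2h2ab, Hist2h2ac, Hist2h2be, Hist2h3c2, Hist2h2aa2, Hist2h2aa1, Hist2h3c1, Hist2h4, Hist2h3b and Hist2h2bb, lie in 1 bin at chr3:96199992-96300033. Hist3h2ba and Hist3h2a lie at chr11:58900363-58999673.

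The sub-clusters contacted each other far more often than other loci the same distance apart. Contact was expressed as observed over expected, the summed read pairs over those expected from the mean count of autosomal bin pairs at the same distance in the same library. Between the sub-clusters it was 6.03 and 6.35 in the Erg KO, 5.36 and 5.46 with CreT, and 4.96 and 4.58 with Erg fl/fl. Every library therefore held over 4 times the expected read pairs, and the 523, 527, 633, 627, 436 and 360 read pairs behind these ratios came from 12 bin pairs. Over the 12 bin pairs the pooled ratio ranged from 1.42 to 9.94 with a median of 5.75, whereas the median of all 184170 bin pairs 15 to 22 bins apart was 0.893. Only 0.0429% of those bin pairs reached the median of the 12, and with both bins scoring above 0 for compartment, where the median was 1.24, 0.0779% did. The ratio depended on the expected count chosen. It ranged from 3.26 to 5.10 against bins of positive compartment score, from 4.01 to 5.50 against chromosome 13 alone, and from 4.46 to 6.28 with bin coverage taken into account.

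Contact with the spacer, summed over its bins, was below expectation. That of the centromeric bins was 0.686 to 0.774 of expected over the 6 libraries, that of the telomeric bins 0.633 to 0.723, and contact within the spacer 0.717 to 0.825. All 3 ratios were under 1 in every library, as the map of the region shows. Spacer bins were not alike, and those named here were singled out after their values were seen. The last one, at chr13:23400400-23500134, had mean ratios of 9.03 (Erg KO) and 7.83 (controls) with the centromeric sub-cluster. The Hist1h1d bin next to it had 9.37 and 8.31, and the Hist1h1c bin 6.66 and 4.71. The first spacer bin had 0.671 and 0.730 with the telomeric sub-cluster. Within a sub-cluster, leaving out each bin's contact with itself, the ratio was close to 1, at 0.996 to 1.11 for the centromeric and 1.21 to 1.32 for the telomeric bins. The high contact between sub-clusters extended beyond the histone genes. The bin without member genes inside the centromeric sub-cluster had mean ratios of 6.51 (Erg KO) and 5.35 (controls) with the telomeric one. Telomeric bins contacted the 10 bins centromeric of the region at 1.61 to 2.55 of expected, centromeric bins contacted the 10 bins telomeric of it at 1.47 to 2.49, and these flanks contacted each other at 1.28 to 2.11. In the centromeric flank the bin at chr13:21100729-21200376, singled out after its values were seen and holding Trim27 and olfactory receptor genes, had ratios of 5.47, 4.40, 4.45, 5.08, 3.37 and 3.09 with the telomeric sub-cluster.

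**Figure D1:**
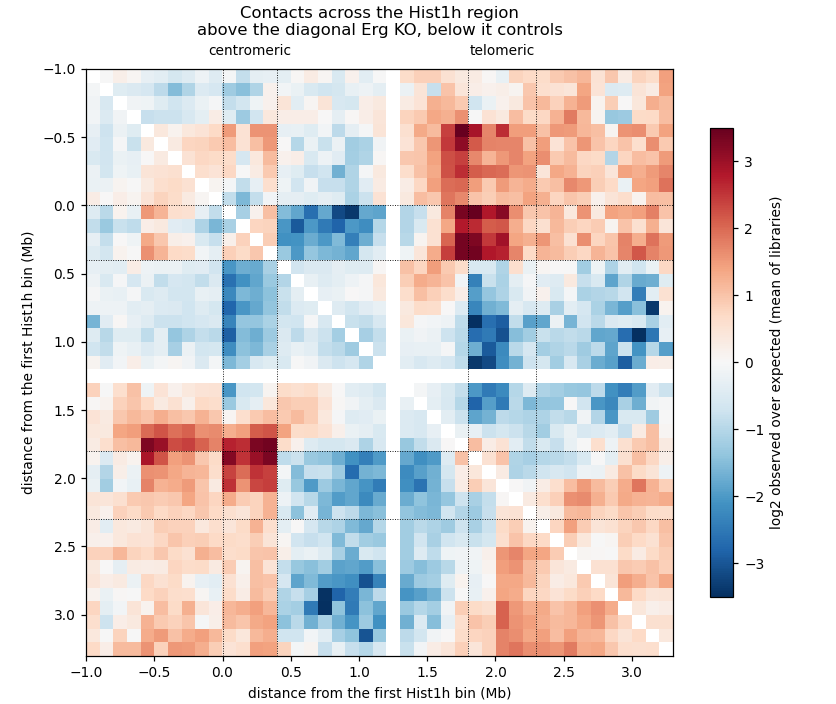
Contact map of the Hist1h region, with the colour of each square the log2 of the mean observed over expected contact of a bin pair in the Erg KO (above the diagonal) or the controls (below), and both axes in Mb from the first Hist1h bin. Dotted lines bound the sub-clusters, and white squares have no value. The sub-clusters meet in corner blocks of high contact, at 4.58 to 6.35 of expected over the libraries, on either side of the pale spacer. The last spacer bin shares in this contact, with mean ratios of 9.03 (Erg KO) and 7.83 (controls) with the centromeric sub-cluster.

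Contacts between sub-clusters were not even among the 7 bins. The Hist1h1b bin and the Hist1h1d bin, the richest in genes, gave ratios of 12 and 11.3 in the Erg KO, 8.21 and 9.46 with CreT, and 10.2 and 9.02 with Erg fl/fl. The Hist1h2bj and Hist1h1d bins gave 8.4, 12.3, 10.7, 9.27, 9.34 and 9.58, with the Erg KO libraries on either side of the controls. The 3 pairs with the Hist1h2ba bin, which holds only the testis pair, had the lowest group means, from 1.35 to 2.34.

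Erg KO libraries had more contact between the sub-clusters than every control. The mean ratio was 6.19 ± 0.231 (SD, n = 2) in the Erg KO and 5.09 ± 0.401 (SD, n = 4) in the controls, a difference of 0.29 on the log2 scale. The groups did not overlap, and the two-sided exact permutation test gave p = 0.0667, the smallest that 2 against 4 libraries can give, or 0.293 after Benjamini-Hochberg adjustment over the 11 contact measures of the region. The threshold of 0.05 could thus not be reached. The contact of the flanks with each other, which involves no histone bin, differed by 0.35 on the log2 scale, with ratios of 1.83 and 2.11 in the Erg KO and 1.61, 1.83, 1.49 and 1.28 in the controls. In these values Erg KO 1 met CreT control 2.

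Contact of the sub-clusters with the spacer and flanks moved in both directions. Telomeric bins and the centromeric flank had 2.55 and 2.44 in the Erg KO against 2.12, 2.25, 1.90 and 1.61 in the controls, without overlap (log2 difference 0.35, exact permutation p = 0.133). Telomeric bins and their adjacent telomeric flank had 1.37 and 1.48 in the Erg KO against 1.67, 1.65, 1.64 and 1.90. Here every Erg KO library was below every control (log2 difference -0.27, exact permutation p = 0.0667, adjusted p = 0.293). Telomeric bins and the spacer had 0.723 and 0.693 against 0.673, 0.633, 0.646 and 0.681, and centromeric bins and the centromeric flank 1.04 and 1.11 against 1.03, 1.03, 0.973 and 0.980, both higher in the Erg KO without overlap (exact permutation p = 0.133 for each). Centromeric bins and the spacer overlapped, with means of 0.724 ± 0.0205 (SD, n = 2) and 0.723 ± 0.0434 (SD, n = 4), as did contacts within either sub-cluster.

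Single bin pairs were tested with edgeR across all 431138 bin pairs that passed the count and abundance filters, of which 6.71% were called higher and 6.15% lower in the Erg KO than in both controls. Of the 30 tested bin pairs with both ends in member bins, 1 was higher and 2 were lower, counts near that background, with a median log2 fold change of 0.07 against 0.01 over all bin pairs. Among the 12 between sub-clusters 1 was higher, with a median of 0.15, while of 29361 bin pairs of positive compartment score at the same distances 0.191% were higher and 3.41% lower, with a median of -0.24. Each pairwise comparison shares the Erg KO libraries. Against the CreT control alone 0 of the 30 were higher and 2 lower (3.84% and 3.40% of all bin pairs), and against the Erg fl/fl control 1 was higher and 2 lower (4.39% and 5.10%). Between the controls edgeR called 0 of the 30, against 2.32e-04% of all bin pairs, and DESeq2 called 0 of the 30 and 0 of all. An unadjusted edgeR p under 0.05 was found for 3 of the 30 and for 27787 of all 431138 bin pairs.

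The higher pair joined the Hist1h1b bin with the Hist1h1c bin, which between them hold 3 of the linker histone genes. Normalised read counts were 63.0 and 60.8 in the Erg KO, 42.6 and 46.8 with CreT, and 33.9 and 43.0 with Erg fl/fl. The groups did not overlap (edgeR log2 fold change 0.56, SE 0.204, adjusted p = 0.0497). This call is marginal, and it was lost in 13 of 14 alternative analyses, among them each one that left out a library. The lower pairs were the contact of the Hist3h bin with itself, at 335 and 357 against 409, 403, 380 and 490 normalised counts (edgeR log2 fold change -0.33, SE 0.0764, adjusted p = 0.00105), and the contact of the Hist1h1c bin with the Hist1h2ba bin. The latter stood at 73.4 and 62.2 in the Erg KO against 116, 101, 96.4 and 108 (edgeR log2 fold change -0.62, SE 0.159, adjusted p = 0.00338). In both, the Erg KO libraries were below every control. The Hist3h call was lost in 5 of 14 alternatives, with a log2 fold change of -0.16 under TMM scaling, -0.14 with offsets for bin coverage, -0.15 with DESeq2, and -0.23 without Erg KO 2 or without Erg fl/fl control 2. The Hist1h1c call was lost in 4 of 14, at -0.44 with coverage offsets and -0.48 with DESeq2, without Erg KO 2 or without Erg fl/fl control 2. Leaving out Erg KO 2 and leaving out Erg fl/fl control 2 were in effect the same alternative. Either way the sex term took up the remaining male library, and the female libraries decided. The next pairs by p did not pass edgeR's adjusted threshold. They were the Hist1h2bq bin with the Hist1h1c bin, at 33.9 and 32.0 against 22.9, 31.1, 18.5 and 15.8 (adjusted p = 0.109), and the Hist1h2bj bin with the Hist1h1d bin, at 73.2 and 107 against 105, 83.7, 90.2 and 124 (adjusted p = 0.193), where the groups overlapped. Contact of the Hist2h bin with itself did not pass either, at 260 and 270 against 325, 277, 302 and 253.

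Some bin pairs of the telomeric sub-cluster with its adjacent flank were called lower in the Erg KO. Of 40 tested, 14 were called lower and 0 higher by edgeR, with a median log2 fold change of -0.40. Bin pairs of positive compartment score 1 to 14 bins apart, 97916 in number, moved the same way with 19.5% lower, 0.698% higher and a median of -0.29. The Hist1h1c bin took part in 3 of the 5 pairs with the smallest p. With the bin at chr13:24599935-24699506 it had 41.7 and 37.9 normalised counts in the Erg KO against 75.6, 67.1, 66.3 and 98.4 (edgeR log2 fold change -1.0, adjusted p = 9.49e-05). With the bin of Carmil1, an actin regulator, at chr13:24200957-24300108 it had 64.8 and 62.5 against 93.2, 86.2, 106 and 119 (edgeR log2 fold change -0.67, adjusted p = 0.00167). Neither showed overlap between the groups. The Hist1h2ba bin with that of Aldh5a1 and Gpld1, at chr13:24900236-24999999, had 13.7 and 31.7 against 44.2, 31.3, 47.2 and 76.5 and did overlap, although its adjusted edgeR p was the smallest (log2 fold change -1.34, adjusted p = 5.53e-05). The number of lower calls fell from 14 to 3 without Erg KO 1, to 1 without Erg KO 2 and to 1 without Erg fl/fl control 2, and to 2 with offsets for bin coverage, and DESeq2 called 0. With either male library left out, the sex term took up the other one. Those settings thus both rested on the female libraries and are not separate checks. Over all 431138 bin pairs DESeq2 called 34 higher and 20 lower. On the other side, edgeR called 1 of 28 pairs of the centromeric sub-cluster with its own flank higher and 1 lower, and 1 of 25 pairs of the telomeric sub-cluster with the centromeric flank higher.

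Hist1h also contacted the Hist2h cluster on chromosome 3. The expected count was taken from the product of each bin's total of contacts with other chromosomes. The 7 Hist1h bins and the Hist2h bin were joined by 10 and 6 read pairs in the Erg KO, 18 and 17 with CreT, and 8 and 3 with Erg fl/fl, with 0.249 to 0.749 expected in a library. Pooled, 62 read pairs against 3.42 expected gave a ratio of 18.1 (exact Poisson 95% interval 13.9 to 23.2, which covers counting error only). Ratios by library were 16, 8.64, 25.6, 22.7, 19.9 and 12.1, and each library's interval lay above 1. Bins scoring above 1 elsewhere in the genome were a weaker partner of Hist1h, at 1.5 (1.49 to 1.52).

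The contact covered the histone bin of chromosome 3 and its neighbours. Of 22494 bins on other chromosomes, 10 held at least 20 read pairs with Hist1h, and the Hist2h bin had the highest ratio of them. The next 7 all lay within 5 bins of it. They included the bin of BC107364 at 13.7, an adjacent bin with no protein-coding gene start at 10.7, and that of Txnip, an inhibitor of thioredoxin, and Polr3gl at 9.92. The Hist3h bin on chromosome 11 came ninth with 6.62, and a bin of chromosome 19 with Fermt3, Stip1 and Macrod1 was the tenth with 3.84. The 5 bins on either side of Hist2h together held 271 read pairs against 35.4 expected, a ratio of 7.65 (6.77 to 8.62). Exact 80-base words shared with Hist1h made up 0.181% of the Hist2h bin, 0.261% of the BC107364 bin, 0 of 99764 words of the adjacent bin with the ratio of 10.7, and 0.0219 to 0.0643% of the other 8 bins within 5 of it. The part of shared sequence in these ratios was not tested.

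**Figure D2:**
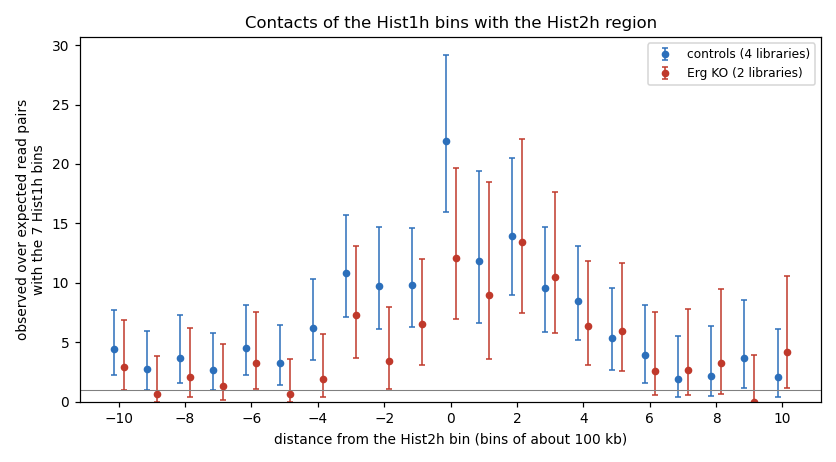
Contact of the 7 Hist1h bins with bins around Hist2h on chromosome 3, as observed over expected read pairs (vertical axis) by distance in bins from the Hist2h bin, for Erg KO and controls with exact Poisson 95% intervals. The controls peak at the Hist2h bin at 21.9, where the Erg KO has 12.1 and, at a distance of 2 bins, 13.4, and the ratios stay raised for several bins on either side.

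Both sub-clusters contributed to these contacts, and the flanks less. The ratio with Hist2h was 21.4 (15.7 to 28.6) for the telomeric and 12.6 (7.18 to 20.4) for the centromeric bins, intervals that overlap. By bin it was highest for the Hist1h1c bin at 32.9 (20.1 to 50.9), followed by the Hist1h1e bin at 24.1, the Hist1h1b bin at 20.6, the Hist1h1d bin at 16.3, the Hist1h2bq bin at 11.2, the Hist1h2ba bin at 10.2 and the Hist1h2bj bin at 6.28. Neighbours in that order had overlapping intervals. The 10-bin flanks of Hist1h gave 5.35 (4.04 to 6.95) and the Vmn1r spacer 2.01 (0.965 to 3.70), an interval that includes 1.

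Between genotypes the trans contact could be compared on few read pairs. The Hist1h to Hist2h ratio was 12.1 (6.94 to 19.7) from 16 read pairs in the Erg KO and 21.9 (16 to 29.2) from 46 in the controls, and these intervals overlap. Over the Hist2h bin with 5 bins on either side the libraries had 6.23, 6.99, 11.6, 10.2, 8.26 and 6.06. Pooled, the ratio was 6.63 (5.40 to 8.07) in the Erg KO, 10.9 (9.35 to 12.6) with CreT and 7.44 (5.62 to 9.66) with Erg fl/fl. The Erg KO interval lay below that of the CreT control, while Erg fl/fl control 2 had the lowest ratio of all libraries, and with expected counts under 3 in a library no test was made.

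Contacts among the other histone loci were sparser. Hist1h and Hist3h were joined by 22 read pairs against 3.33 expected (6.62, interval 4.15 to 10), with 5.34 (2.15 to 11) in the Erg KO and 7.44 (4.17 to 12.3) in the controls. The 5 bins on either side of Hist3h gave 2.54 (2.00 to 3.19). Hist2h and Hist3h shared 3 read pairs (4.67, interval 0.962 to 13.6), and Hist1h and the bin of Hist4h4, a lone H4 gene on chromosome 6, shared 6 (1.96, interval 0.721 to 4.27). Both of these intervals include 1, so that no excess was detectable at this depth. The Hist2h bin and that of Hist4h4 shared 4 read pairs against 0.591 expected (6.77, interval 1.85 to 17.3), of which 3 came from CreT, 1 from Erg fl/fl and 0 from the Erg KO, where 0.227 were expected. Hist3h and Hist4h4 shared 0 against 0.574 expected, which allows a ratio of up to 6.43.

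Member bins directed a larger share of their read pairs to other chromosomes in the Erg KO, as bins did in general. Of the clusters, Hist2h stood furthest above the median of all bins. In the Hist2h bin the share was 45.9 and 47.4% in the Erg KO, 37.9 and 40.3% with CreT, and 34.4 and 30.8% with Erg fl/fl. It exceeded each library's median over all bins by 11.7 ± 0.312 percentage points (SD, n = 2) in the Erg KO and 10 ± 2.09 (SD, n = 4) in the controls, and these excesses overlapped (exact permutation p = 0.333). The Hist3h excess was 2.33 against 0.853 and the centromeric Hist1h excess -0.069 against 1.11, both without overlap (exact permutation p = 0.133 and adjusted p = 0.267 for each, over 4 clusters). The centromeric values of the Erg KO, -0.063 and -0.075, lay only just below the -0.053 of Erg fl/fl control 2. The telomeric excess was 3.29 against 3.73 with overlap. All member bins score positive for compartment, and against the median of such bins, 36.5 and 38.1% in the Erg KO and 23.4 to 30.2% in the controls, the Hist3h share differed by -0.048 and 0.066 percentage points in the Erg KO and by -0.176, -1.67, 0.072 and -0.069 in the controls. The Hist3h groups then overlapped (exact permutation p = 0.533). The centromeric share stayed without overlap, at -2.39 against -0.207 (exact permutation p = 0.0667, adjusted p = 0.267).

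All member bins lay in the active compartment. The compartment score follows the plaid pattern of contacts along a chromosome, is scaled to an SD of 1, and is positive on the side of high gene density. It ranged over the 6 libraries from 0.585 to 1.28 in the centromeric bins, from 1.04 to 1.40 in the telomeric bins, from 1.38 to 1.65 in the Hist2h bin and from 0.848 to 0.939 in the Hist3h bin. Spacer bins ranged from -1.42 to 0.78. None of the 9 member bins was called by limma in the Erg KO against both controls, while 2.00% of 23651 bins were called higher and 1.90% lower, and 1.27% each way of bins that scored above 0 in every library. An unadjusted limma p under 0.05 was found for 28.7% of all bins, 25.2% of those scoring above 0 and 1 of the 9 member bins. That bin was the Hist1h1b bin, with 0.906 and 1.02 in the Erg KO against 1.1, 1.08, 1.05 and 1.05 in the controls (limma change -0.12, adjusted p = 0.143).

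Around the sub-clusters the score was lower over whole stretches. The limma change was negative in all 13 spacer bins (median -0.26), all 10 bins of the centromeric flank (median -0.23) and 9 of 10 of the telomeric flank (median -0.12). An unadjusted limma p under 0.05 was found for 12, 9 and 5 of them, against 28.7% of all bins. After adjustment 1 spacer bin and 2 bins of the centromeric flank passed. In the spacer bin next to the Hist1h2bj bin the score was -0.541 and -0.251 in the Erg KO against -0.029, -0.142, -0.088 and 0.060 in the controls (limma change -0.40, adjusted p = 0.0446). In the centromeric flank a pair of adjacent bins scored lower, with limma changes of -0.25 and -0.24 (adjusted p = 0.0443 for each). In these bins the Erg KO libraries were below every control. Against either control alone limma called 0 bins in the whole genome.

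**Figure D3:**
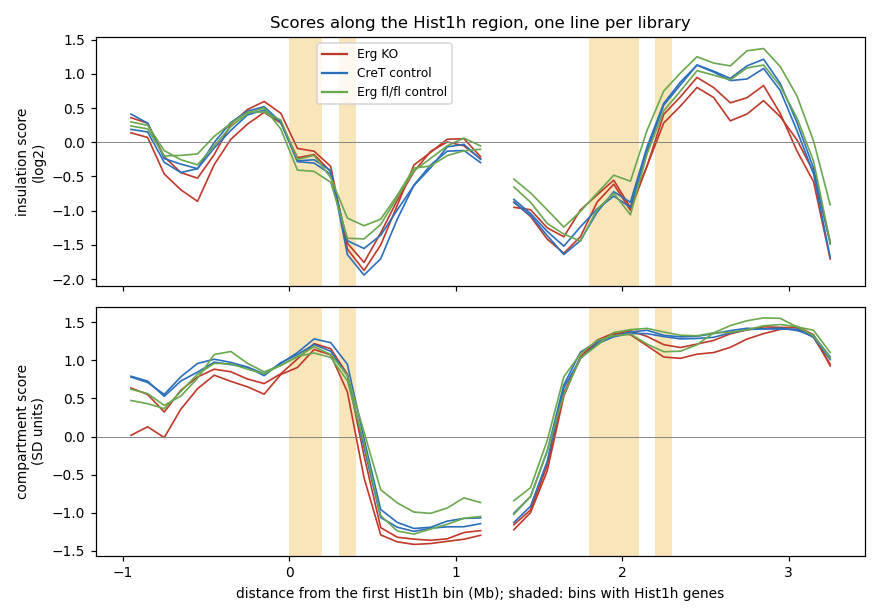
Insulation score (upper panel, log2) and compartment score (lower panel, SD units) along the Hist1h region, in Mb from the first Hist1h bin, with a line per library coloured by group and the member bins shaded. In the lower panel the sub-clusters stand as positive blocks around a spacer that falls to -1.42.

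The insulation score of member bins was lower in the Erg KO for 3 of 9. This score is the log2 mean count in the square of contacts across a bin, 5 bins to either side, over its chromosome's mean, so a lower value means fewer contacts reaching across the bin. Over 23338 bins limma called 39.1% higher and 26.7% lower, with a median change of 0.08, whereas of 10306 bins that scored above 0 for compartment in every library, as the members do, 53.3% were lower and 6.08% higher with a median of -0.21. The members' 3 lower calls are therefore no more than this background. The Hist2h bin had 0.081 and 0.202 in the Erg KO against 0.443, 0.364, 0.359 and 0.801 (limma change with sex in the model -0.42, SE 0.0867, adjusted p = 0.00345). The Hist3h bin had -0.643 and -0.519 against -0.174, -0.306, -0.152 and 0.068 (limma change -0.48, SE 0.0757, adjusted p = 0.00112). The Hist1h2ba bin had 0.283 and 0.408 against 0.543, 0.569, 0.462 and 0.750 (limma change -0.29, SE 0.0729, adjusted p = 0.00888). In all 3 the Erg KO libraries were below every control.

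The other 6 Hist1h bins did not pass, with limma changes from -0.17 to 0.11. The Hist1h1b bin, for example, had -0.225 and -0.090 in the Erg KO against -0.283, -0.272, -0.406 and -0.249, so that both Erg KO libraries were above the controls (limma change 0.11, adjusted p = 0.190). The Hist1h2bj bin, at the border to the spacer, had the lowest member scores, at -1.11 to -1.64 over the libraries. Around the genes, limma called 8 of 10 bins of the telomeric flank lower with a median of -0.40, 3 of 10 of the centromeric flank lower, and 1 higher and 1 lower of 13 spacer bins. Squares of neighbouring bins overlap, so these calls are not independent.

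Bins of genes that serve the histone clusters mostly passed as lower in insulation score, as did bins of positive compartment score in general. Of 7357 bins with a mean compartment score at or above that of the lowest member bin, 63.8% were lower. The histone locus body and histone mRNA processing list had 27 bins, of which limma called 2 higher and 19 lower in insulation score. The lower ones included Sympk, a scaffold of the cleavage complex, at -0.98, Lsm10, a protein of the U7 snRNP, at -0.93, and Slbp, which binds the stem-loop, at -0.34. The higher ones were Lsm11, the partner of Lsm10, at 0.31 and Cstf2t, a cleavage factor, at 0.36. Both lay in bins of negative mean compartment score. That of Lsm11 was -0.252 in the Erg KO and -0.261 in the controls, and that of Cstf2t -1.03 and -0.964. Npat itself did not pass (limma change -0.06, adjusted p = 0.449). Of 13 bins of replacement and orphan histone genes, which are expressed outside S phase or lie alone, 12 were lower, with H2afy2, a macroH2A gene, at -0.81 and Hist4h4 at -0.39. Of 12 bins of histone chaperones 9 were lower, among them Chaf1a and Chaf1b, subunits of the replication chaperone CAF-1, at -0.81 and -0.79, and Hira, which deposits H3.3, at -0.79. The other lists gave 7 of 9 bins lower for B-lineage markers, 7 of 8 for T-lineage and 7 of 8 for myeloid markers, but 3 lower and 6 higher of 12 for stromal feeder markers. In compartment score limma called none of these bins except the 2 stromal ones, Col1a2 at 0.32 and Prrx1 at 0.38.

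**Figure D4:**
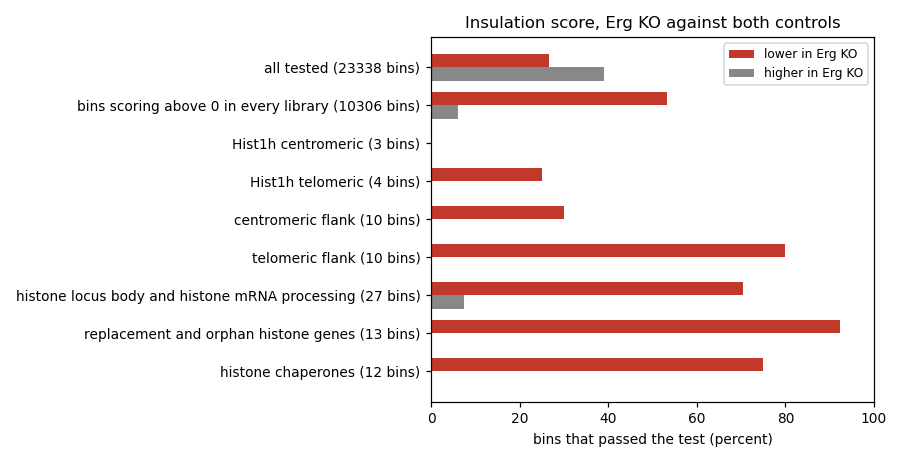
Percent of bins whose insulation score passed the limma test as lower or higher in the Erg KO (horizontal bars), for all bins, for bins of positive compartment score, for the Hist1h sub-clusters and their flanks, and for 3 gene lists, with the number of bins in brackets. The telomeric flank, with 8 of 10 bins lower, and the gene lists stand above the 53.3% of bins of positive compartment score. Not drawn are bins with a mean compartment score at or above that of the lowest member bin, of which 63.8% were lower. Also not drawn are bins of B-lineage, T-lineage and myeloid markers, of which 77.8 to 87.5% were lower.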

How the data were processed

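In situ Hi-C of 6 libraries, 2 for each of 3 genotypes, was deposited by the authors as raw counts of read pairs per pair of bins, each joining restriction fragments over about 100 kb. Per the authors' methods, diffHic was used to map reads of 80 bases to mm10, and duplicates and the pairs of unligated or overlong fragments were taken out. Depth was 29014581 to 68085468 read pairs per library, so that a bin pair between chromosomes often held 0 or 1 read pair in a library, and those contacts were pooled and given with exact Poisson intervals.

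Autosomal bins with total contacts between 0.3 and 3 times the median were kept, 23651 of 24067, in place of the lists of excluded regions. Bin pairs entered the quasi-likelihood test of edgeR 4.0.16 (R 4.3.3) if they held 10 or more read pairs and were 5 or more times as abundant as contacts across chromosomes. The model held group and sex, with loess offsets, and the filter and offsets were written after those of diffHic. Insulation and compartment scores were tested with limma 3.58.1 in the same model. Adjustment followed Benjamini-Hochberg across all bin pairs or bins tested, at a threshold of 0.05. Contact ratios and shares were compared by two-sided exact permutation over the 15 assignments of 2 libraries among 6. The edgeR and limma steps were tested on simulated data. Libraries of a genotype are biological duplicates per the authors' methods.

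Alternatives were TMM scaling, coverage offsets, no sex term, a replicate block, other filters, other expected counts, squares and flanks, removal of the GC trend, DESeq2 1.42.0, each control alone, and each library left out. The limma test over contact ratios was chosen after seeing the data. The member genes, the lists of locus body and processing genes, replacement histones, chaperones and cell type markers, and the rules were chosen with earlier results of these data known. Named were the first and last gene of each sub-cluster, H1, Hist2h and Hist3h genes, the list genes with the clearest changes, the 5 bin pairs with the smallest p among member bins and the 5 with flanks, and bins on other chromosomes with at least 20 read pairs. Replicate numbers were checked for pairing over 58270 bin pairs. Deviations of same-numbered libraries correlated at -0.06 between Erg KO and CreT, 0.28 between Erg KO and Erg fl/fl, and -0.16 between the controls. Erg KO 2 and Erg fl/fl control 2 are both male, so sex and pairing could not be told apart in the 0.28. The numbers were not taken as pairs, but the check could not exclude pairing. Python 3.11.15, numpy 2.4.6, pandas 2.3.3, scipy 1.17.1 and matplotlib 3.10.9 were used.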

Additional observations from a re-analysis of the deposited data

Results flagged for a closer look

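Of 33 sets of values of the 4 control libraries, 3 held a library far from the other 3, and chance gives such a value in about 1 of 20 sets. Contact within the telomeric Hist1h sub-cluster was 1.32 of expected in Erg fl/fl control 1, and 1.24 in each of the other controls. Contact of the telomeric sub-cluster with its telomeric flank was 1.90 in Erg fl/fl control 2, and 1.64 to 1.67 in the others. The insulation score of the Hist1h1d bin was -0.744 in Erg fl/fl control 2, and -1.02 to -0.974 in the others. Erg fl/fl control 2 was the library with the fewest read pairs, and the part of depth in these values was not tested.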

How the results depend on the processing

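Of 556 values recomputed under alternatives, 435 were taken as unchanged. Counts had to stay within 1.5 times, and single bin pairs and bins to keep their direction and side of the threshold. Contact differences and shares had only to keep their direction, and the Hist1h to Hist2h ratio to stay within its Poisson interval. Over all 431138 bin pairs DESeq2 called 34 higher and 20 lower in the Erg KO against both controls. It called 0 against the CreT control, and 1700 higher and 153 lower against the Erg fl/fl control. In that last contrast DESeq2 gave an adjusted p to 54992 bin pairs only, 16 of the 30 member bin pairs among them. Calls among the 30 member bin pairs (3 in the report) were 1 with TMM scaling, 0 with DESeq2, and 0 to 2 when any library was left out. Lower calls with the telomeric flank (14) were 2 with coverage offsets, 7 without sex, 9 with a count minimum of 20 and no abundance filter, 0 with DESeq2, 7 with CreT as the only control, 8 with Erg fl/fl as the only control, and 1 to 16 without a library. Against the CreT control alone, the calls among member pairs (2) were 0 with TMM scaling, 1 with coverage offsets, 1 without sex, 0 with DESeq2 and 0 to 2 without a library, and against the Erg fl/fl control alone (3) they were 1, 2, 0, 0 and 0 to 2, and 1 with the count minimum of 20.

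Replicate numbers did not pair the libraries. With the replicate block edgeR called 2 member pairs and 10 flank pairs. Contact between the sub-clusters differed by 0.30 on the log2 scale with the replicate block (limma adjusted p = 0.0355) and by 0.29 without it (limma adjusted p = 0.00270), where the exact test could not reach the threshold, and by 0.24 to 0.32 without a library. The difference in contact with the spacer of the centromeric sub-cluster, 0.00 in the report, was -0.0811 with bin coverage, -0.0667 against the Erg fl/fl control, and -0.0240 to 0.0386 without a library. The Hist1h to Hist2h ratio was 27.9 with an expected count from the mean between chromosomes and 9.74 with 1 bin added on either side, and 16.2 to 20.5 without a library.

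Member bins called in insulation score (3) were 1 without sex and 3 to 5 without a library, with 5 on leaving out either Erg KO or either Erg fl/fl library. In compartment score (0) they were 0 to 2, with 2 without Erg KO 2 or Erg fl/fl control 2. Changes without a library crossed 0 in insulation score for the Hist1h2bq (-0.0118 to 0.17), Hist1h1d (-0.12 to 0.22), Hist1h1e (-0.13 to 0.20) and Hist1h1c bins (-0.50 to 0.0307), and in compartment score for the Hist2h (-0.20 to 0.0272), Hist1h1d (-0.0353 to 0.0510), Hist1h1c (-0.0460 to 0.0625) and Hist1h2ba bins (-0.30 to 0.12). In compartment score the change was 0.0049 for the Hist2h and 0.0012 for the Hist1h1c bin against the CreT control, and 0.0435 for the Hist1h2bq bin against the Erg fl/fl control. The telomeric share of contacts to other chromosomes differed by -1.09 to 0.104 percentage points without a library. The causes of these changes were not tested. Where a library was left out and a group kept 1, that library was assumed to vary like the others. In edgeR and limma, leaving out Erg KO 2 or Erg fl/fl control 2 left a single male library, which the sex term took up. Both settings then rested on the female libraries, although they were counted as separate alternatives.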
